A study of Homo sapiens with 519 samples.

Results

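Palbociclib is an inhibitor of CDK4 and CDK6, the kinases that carry a cell from G1 into S phase. Its libraries were the 3 labelled Palbociclib, concentration 10 with no unit given, of the 96 libraries of the third experiment and the 519 libraries of the whole series, and they were compared with the 9 DMSO wells of the same experiment across all genes. All of these wells held SK-N-BE(2), an established neuroblastoma line with amplified MYCN (genotype MYCNA in the labels), seeded at 10000 cells per well and exposed for 24 h, with DMSO at 0.1% in treated and control wells alike. All results are from this single line and this single concentration of palbociclib. RNA was read by PLATE-seq, a 3′-end method in which each well of a plate carries its own barcode. Alisertib at 5, an inhibitor of Aurora A kinase, NVP-BEZ-235 at 0.6, an inhibitor of PI3K and mTOR, and Flavopiridol at 3, an inhibitor of several CDKs including those that drive transcription, served as comparison treatments with 3 libraries each. Their concentrations are also given without a unit.

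In a cycling cell, D-type cyclins bind CDK4 and CDK6, and the active kinase phosphorylates the retinoblastoma protein RB1 and its relatives. Phosphorylated RB1 releases the E2F transcription factors, which turn on the genes for DNA replication, and later the B-MYB and FOXM1 factors turn on the genes for mitosis. Inhibitor proteins of the INK4 family bind CDK4 and CDK6 directly, while p21 and p27 act on the cyclin-bound kinases. MYCN amplification, a mark of aggressive neuroblastoma, is known to go with strong expression of cell-cycle genes.

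The 3 palbociclib libraries held between 1956802 and 3507546 counts and the 9 DMSO libraries had a median of 4283536, the lowest at 2775143. Mitochondrially encoded genes took 16.8% to 20.0% of the counts with palbociclib and 16.03% to 17.7% with DMSO. The line expressed its lineage markers: PHOX2A averaged 87.9 CPM (counts scaled by library size) in DMSO and 78.8 CPM with palbociclib, and GATA3 averaged 203 CPM and 180.2 CPM. None of the 8 adrenergic neuroblast markers checked passed the test between the groups. Of 7 blood and immune markers, 4 had no read in the 12 libraries and none reached the count needed for testing. Summed levels of the other marker lists overlapped between the groups: 9.45 to 16.2 CPM with palbociclib against 6.06 to 14.4 CPM with DMSO for epithelial markers, 42.5 to 84.8 against 36.6 to 73.8 CPM for endothelial and fibroblast markers, and 4.04 to 13.8 against 0.75 to 10.5 CPM for Schwann and melanocyte markers. KRT5 and SOX10 had no read. Of the 9 tested markers on those 3 lists, 1 was called: EPCAM, an epithelial adhesion protein named after its value was seen, read 6.50, 12.1 and 10.9 CPM with palbociclib and 0.657 to 3.66 CPM with DMSO, a log2 change of 2.204 (SE 0.51, adjusted p = 0.0021). The part of other cell types in the results was not tested. The labels do not say that replicates were separate cultures, so p-values measure the spread between wells of the same treatment, which may be technical. That spread was estimated from all 96 libraries (30 groups) of the experiment, not from the palbociclib and DMSO wells alone.

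Each gene was tested by edgeR's quasi-likelihood test on counts, and a gene was called at a Benjamini-Hochberg adjusted p under 0.05 over the 15596 genes tested. Log2 changes are palbociclib minus DMSO throughout, with a standard error (SE). Palbociclib changed 1006 genes (6.45% of the genes tested), of which 553 were lower (3.55%) and 453 were higher (2.9%). At least a 2-fold change was seen in 562 of them, 339 lower and 223 higher. For 726 of the called genes the 3 palbociclib libraries did not overlap the 9 DMSO libraries in CPM, a property shown by 8.11% of all genes tested, with 4.66% lower and 3.46% higher. The median log2 change of all genes was −0.02. Without palbociclib replicate 2 the count of called genes was 641, and without replicate 3 it was 573, against 726 without replicate 1.

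Genes on the cell-cycle lists fell more often than all genes tested, of which 3.55% fell. List members were chosen with earlier results of these data known, so the counts are descriptions and no tests. Of 232 genes on 12 cell-cycle lists, 229 could be tested, 145 fell (63.3%) and 1, CDKN1A, rose, and the median log2 change over the tested members was −1.21. Genes on no cell-cycle list split more evenly, with 408 lower and 452 higher of 15367. CCND2, CDKN2B and MCM2 had too few reads for a test in these libraries. Leaving out palbociclib replicates 1, 2 and 3 in turn gave 110, 128 and 124 members lower. In whole wells, fewer cycling cells and less RNA per cycling cell cannot be told apart.

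The 4 genes used as markers stand for stages of the cell cycle. MCM3 is a subunit of the replicative helicase and PCNA the sliding clamp of DNA polymerases. CDK1 is the kinase that starts mitosis, and CCNB2 is a cyclin that activates it. MCM3 read 52.0, 59.1 and 64.2 CPM in the 3 palbociclib libraries and between 100.4 and 151 CPM in DMSO, with a median of 129 CPM. The log2 change was −1.11 (SE 0.14, adjusted p = 4.34e-09). For PCNA the palbociclib libraries read 47.5, 48.0 and 42.0 CPM, and the DMSO wells 229 to 324 CPM around a median of 255 CPM, a log2 change of −2.49 (SE 0.24, adjusted p = 6.23e-13). Neither gene had a palbociclib library within the DMSO range. CDK1 was at 27.2, 43.0 and 31.9 CPM against 129 to 162 CPM, median 139 CPM, a log2 change of −2.06 (SE 0.17, adjusted p = 7.43e-16). CCNB2 was at 61.7, 58.6 and 44.1 CPM against 104 to 145 CPM, median 124 CPM, a log2 change of −1.16 (SE 0.18, adjusted p = 1.95e-06). All 4 markers thus lay below every DMSO well, PCNA and CDK1 below a log2 change of −2 and MCM3 and CCNB2 near −1.

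**Figure D1:**
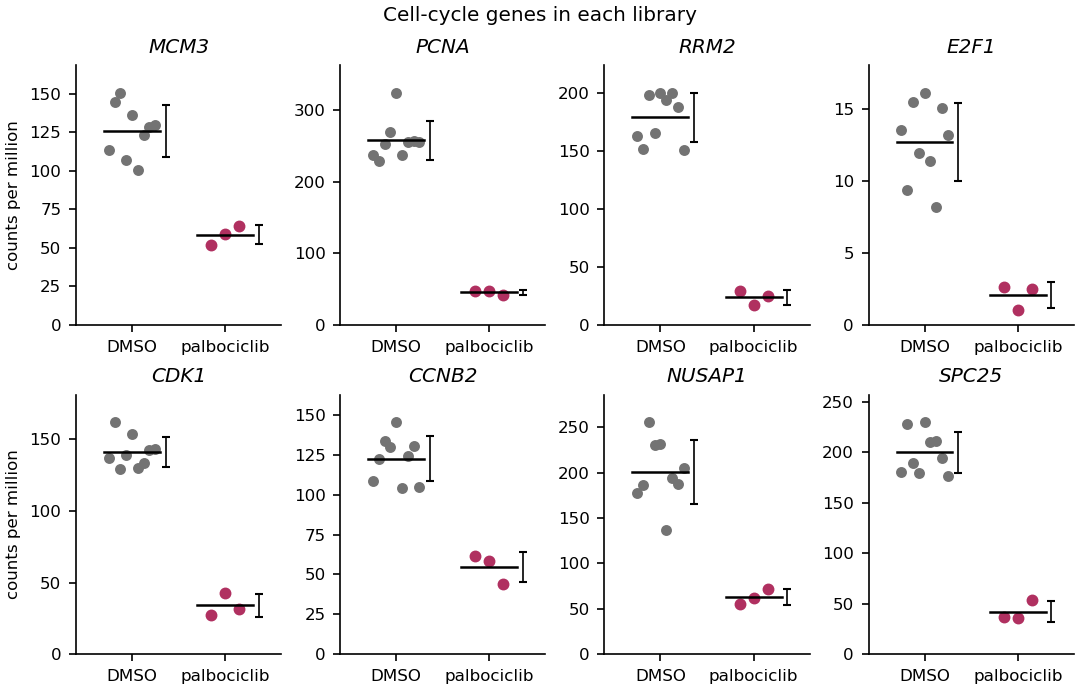
CPM, counts scaled by library size (vertical axes, from 0) of 8 cell-cycle genes in the 9 DMSO wells (grey points) and 3 palbociclib libraries (red points). Horizontal bars are group means and vertical bars are 1 SD; in every panel all palbociclib points lie below all DMSO points, as for PCNA at 42.0 to 48.0 against 229 to 324 CPM.

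The promoters of these 4 genes, printed here because they carry the letters through which E2F and the mitotic factors are known to act, were taken from RefSeq on GRCh38.p14. Each line is the 250 bases before the transcription start of the promoter entry shown, 5′ to 3′ on the gene's strand. Capitals mark an E2F motif (TTTCCCGC, TTTGGCGC, TTTCGCGC or TTTGCCGC, on either strand) or the cell cycle homology region (CHR, TTTGAA, on either strand). The CHR is bound by the complexes that hold B-MYB. MCM3 is at chr6:52284743-52284992 on the minus strand, PCNA at chr20:5126623-5126872 on the minus strand, CDK1 at chr10:60778228-60778477 on the plus strand and CCNB2 at chr15:59104896-59105145 on the plus strand. PCNA and CDK1 have 2 promoter entries each, and the entry with more matches is shown. For CDK1 the start of that entry lies downstream of the first base of the gene, at 60778331. Part of its printed window therefore lies inside the gene, and its matches do not describe the promoter of the most upstream start.
MCM3: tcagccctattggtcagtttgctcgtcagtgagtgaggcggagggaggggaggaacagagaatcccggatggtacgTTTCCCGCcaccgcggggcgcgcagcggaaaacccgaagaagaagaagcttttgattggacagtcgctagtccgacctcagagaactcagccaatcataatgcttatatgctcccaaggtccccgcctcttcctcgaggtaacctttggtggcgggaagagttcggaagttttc
PCNA: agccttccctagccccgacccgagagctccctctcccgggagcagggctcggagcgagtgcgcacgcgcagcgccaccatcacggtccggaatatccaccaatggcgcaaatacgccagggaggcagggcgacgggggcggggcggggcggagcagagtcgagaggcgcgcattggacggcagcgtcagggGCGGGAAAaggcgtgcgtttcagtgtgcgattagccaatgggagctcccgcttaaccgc
CDK1: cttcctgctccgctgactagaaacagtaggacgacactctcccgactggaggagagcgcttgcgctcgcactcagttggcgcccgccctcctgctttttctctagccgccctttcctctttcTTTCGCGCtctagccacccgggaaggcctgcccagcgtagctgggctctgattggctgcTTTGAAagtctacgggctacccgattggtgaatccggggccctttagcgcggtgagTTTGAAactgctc
CCNB2: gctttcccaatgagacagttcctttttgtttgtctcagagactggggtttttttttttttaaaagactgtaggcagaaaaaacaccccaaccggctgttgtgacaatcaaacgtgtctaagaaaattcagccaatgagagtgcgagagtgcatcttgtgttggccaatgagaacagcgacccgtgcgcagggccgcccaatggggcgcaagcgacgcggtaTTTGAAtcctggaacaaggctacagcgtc

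MCM3 and PCNA, the genes of S phase, held 1 E2F motif each and no CHR in this window. CCNB2, the gene of mitosis, held 1 CHR and no E2F motif, and CDK1 held 1 E2F motif and 2 CHR matches. In PCNA the E2F motif stood on the reverse strand. The first base of the motif lay 174 bases before the start in MCM3, 59 in PCNA and 128 in CDK1, for CDK1 counted from the downstream start. That of the CHR lay 29 bases before the start in CCNB2. Motifs were also counted by list over the full 300 bases from 250 before to 50 after the start. An E2F motif was present in 10 of 21 promoters of the origin licensing and helicase list (47.6%) and 10 of 29 of the replication fork list (34.5%), against 3.31% of the 35116 promoters in the table. A CHR was present in 21 of 26 promoters of the spindle list (80.8%) and 14 of 25 of the kinetochore list (56.0%), against 15.2% of all promoters. The licensing list held a CHR in 1 of 21 promoters, the spindle list an E2F motif in 2 of 26 and the kinetochore list an E2F motif in 3 of 25 (12.0%). Other lists held both: the condensin and cohesin list had an E2F motif in 20.0% and a CHR in 40.0% of 25 promoters, and the chromatin assembly list 28.6% and 21.4% of 14. Promoters were found for 15 of 18 licensing, 24 of 29 fork, 24 of 26 spindle, 23 of 27 kinetochore, 17 of 21 condensin and cohesin and 12 of 12 chromatin assembly genes. A motif match describes letters and does not show binding.

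Among genes that prepare and fire replication origins, 13 of 18 fell, with a median log2 change of −1.55. MCM7, another helicase subunit, read 41.3, 47.0 and 31.5 CPM against 108 to 199 CPM in DMSO (median 157 CPM), a log2 change of −2.02 (SE 0.19, adjusted p = 1.44e-13). GINS2, which joins the helicase to form its active state, read 11.5, 17.7 and 15.5 CPM against 61.9 to 96.4 CPM (median 80.7 CPM), a log2 change of −2.39 (SE 0.24, adjusted p = 5.6e-12). Neither gene had a palbociclib library within the DMSO range. MCM5 changed by −1.55 on the log2 scale. The 5 members that did not pass, named after their values were seen, were ORC1, CDC7, GINS4, DBF4 and CDC6, with log2 changes between −1.92 and −0.62.

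At the replication fork, 18 of 29 genes fell and the median log2 change was −1.20. PCLAF, a partner of PCNA, gave 46.1, 44.5 and 42.8 CPM against 252 to 332 CPM in DMSO (median 291 CPM). Its log2 change of −2.70 (SE 0.19) had an adjusted p of 1.87e-18. The 3 libraries lay close together and far below every DMSO well. FEN1, the nuclease that trims Okazaki fragments, gave 15.4, 11.6 and 4.62 CPM against 31.5 to 42.3 CPM (median 39.4 CPM), a log2 change of −1.81 (SE 0.28, adjusted p = 1.93e-06). Without palbociclib replicate 1 the list counted 11 lower members.

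Genes that supply deoxynucleotides fell in 8 of 10 cases, with a median log2 change of −1.45. RRM2, the regulated subunit of ribonucleotide reductase, was at 29.5, 17.2 and 24.8 CPM against 151 to 199.99 CPM (median 188 CPM), a log2 change of −2.90 (SE 0.24, adjusted p = 1.98e-15). TYMS, thymidylate synthase, read 14.5, 23.8 and 45.3 CPM against 120.0 to 199 CPM (median 153 CPM). Both enzymes were below every DMSO well, and TYMS varied more between the palbociclib libraries. DUT, the dUTPase, changed by −1.78 on the log2 scale. SAMHD1 and DCK, the 2 members that did not pass, changed by −0.53 and −0.21.

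Of the chromatin assembly and DNA methylation genes, 10 of 12 fell, with a median of −1.01. H2AX, a histone variant that marks DNA breaks, was at 28.6, 20.2 and 22.7 CPM against 90.5 to 148 CPM (median 110.1 CPM), a log2 change of −2.25 (SE 0.24, adjusted p = 1.81e-11). NASP, a histone chaperone, changed by −1.38 and H2AZ1, a histone variant, by −0.95. DNA repair and S phase checkpoint genes fell in 11 of 22 cases, with a median of −1.15. BRCA1, which acts in homologous recombination, was at 13.9, 14.7 and 15.1 CPM against 55.9 to 89.3 CPM (median 69.0 CPM), a log2 change of −2.29 (SE 0.21, adjusted p = 1.29e-13). EXO1, a nuclease of mismatch repair and resection, changed by −2.19, and RMI2, part of the complex that dissolves recombination intermediates, by −2.77.

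The mitotic lists fell to a similar extent. Of the G2 and mitotic regulators 22 of 25 fell, with a median log2 change of −1.49. PKMYT1, a kinase that restrains CDK1, read 19.2, 21.7 and 18.04 CPM against 72.4 to 108 CPM (median 89.7 CPM), a log2 change of −2.19 (SE 0.18, adjusted p = 3.94e-15). FBXO5, an inhibitor of the anaphase-promoting complex, read 7.09, 6.57 and 4.62 CPM against 18.7 to 44.4 CPM (median 28.4 CPM), a log2 change of −2.31 (SE 0.37, adjusted p = 3.68e-06). Palbociclib libraries and DMSO wells did not overlap for either gene. GTSE1, a microtubule-binding protein of G2 and S phase, changed by −1.66. The 3 members that did not pass, named after their values were seen, were AURKA at −0.64, CCNA2 at −0.56 and CDC25B at −0.18.

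Spindle motor and cytokinesis genes fell in 20 of 26 cases, with a median of −1.44. NUSAP1, which bundles spindle microtubules, read 54.9, 62.2 and 72.2 CPM against 137 to 255 CPM (median 194 CPM), a log2 change of −1.67 (SE 0.15, adjusted p = 4.81e-14). TPX2, which activates Aurora A on the spindle, changed by −1.63, and RACGAP1, part of the complex that organises the midzone, by −1.43. DLGAP5, a spindle-assembly protein, changed by −2.44 (SE 0.50, adjusted p = 0.000446), with 8.86, 9.60 and 2.94 CPM against 21.8 to 73.9 CPM (median 39.7 CPM). Centromere and kinetochore genes fell in 20 of 27 cases, with a median of −1.24. SPC25, a subunit of the complex that holds microtubules at the kinetochore, read 36.6, 35.9 and 53.7 CPM against 177 to 229 CPM (median 194 CPM), a log2 change of −2.25 (SE 0.18, adjusted p = 7.43e-16). NDC80, its partner, changed by −1.74, and CENPU, a centromere protein, by −2.18. Condensin, cohesin and topoisomerase genes fell in 12 of 21 cases, with a median of −1.09. CDCA5, which protects cohesin, read 6.79, 5.06 and 7.13 CPM against 35.5 to 51.1 CPM (median 40.1 CPM), a log2 change of −2.67 (SE 0.25, adjusted p = 1.66e-13). ESCO2, which acetylates cohesin in S phase, changed by −2.42 and NCAPG, a condensin subunit, by −1.77.

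**Figure D2:**
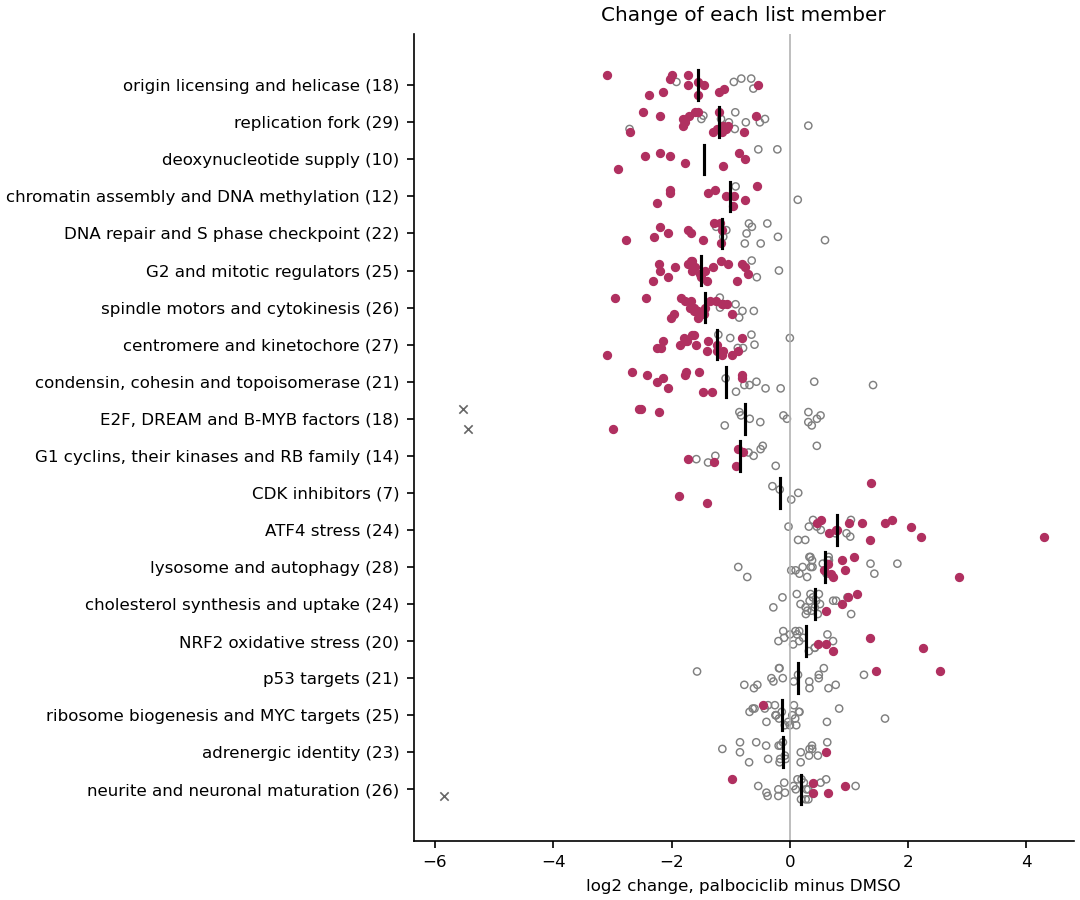
Log2 change, palbociclib minus DMSO (horizontal axis), of each tested member of 20 gene lists, with the number of tested members in brackets. Filled points were called and open points were not, crosses had no read in 1 group so their position is a fitted value and no bound, and bars are list medians; the replication and mitosis lists have medians from −1.55 to −1.01 and the ATF4 list has a median of 0.79.

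The transcription factors and regulators above these genes changed less uniformly. Of 18 E2F, DREAM and B-MYB factors 4 fell, with a median of −0.75. E2F1, an activator of S phase genes, read 2.66, 1.01 and 2.52 CPM against 8.17 to 16.1 CPM in DMSO (median 13.1 CPM), a log2 change of −2.55 (SE 0.50, adjusted p = 0.000225). E2F2, its close relative, read 1.48, 1.52 and 4.196 CPM against 6.90 to 13.8 CPM (median 12.0 CPM), a log2 change of −2.21 (SE 0.43, adjusted p = 0.000166). The third activator, E2F3, read 40.5, 38.4 and 49.9 CPM inside the DMSO range of 36.01 to 54.1 CPM, a log2 change of −0.11 (95% interval −0.50 to 0.29, adjusted p = 0.85). E2F1 and E2F2 were below every DMSO well while E2F3 overlapped. MYBL2, the gene of B-MYB, changed by −2.52 (SE 0.34, adjusted p = 4.3e-08), and E2F7, a repressor named after its value was seen, was the other member that fell. MYBL1 and E2F8 had no read with palbociclib and averaged 1.76 and 1.84 CPM in DMSO.

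Neither target kinase passed the test. CDK4 read 334, 278 and 368 CPM against 345 to 496 CPM in DMSO (median 371 CPM), a log2 change of −0.24 (95% interval −0.53 to 0.05, adjusted p = 0.42). CDK6 read 79.4, 64.7 and 60.8 CPM against 59.0 to 118 CPM (median 97.3 CPM), a log2 change of −0.46 (95% interval −0.83 to −0.09, adjusted p = 0.138). Both ranges overlapped DMSO. Cyclin D1, CCND1, which activates both kinases, read 862, 603 and 1032 CPM against 409 to 837 CPM (median 634 CPM), a log2 change of 0.46 (95% interval −0.06 to 0.98, adjusted p = 0.373). RB1 was at 2.36, 7.08 and 5.04 CPM against 2.54 to 10.3 CPM (median 7.93 CPM), too few reads to place its change more closely than between −1.48 and 0.25. RBL1, the relative p107, lay below every DMSO well at 2.07, 3.54 and 1.68 CPM against 4.99 to 10.5 CPM, but its log2 change of −1.58 (SE 0.58) missed the threshold at an adjusted p of 0.0895. CCNE2, a cyclin of the G1 to S step, had 5.02, 17.7 and 7.97 CPM against 15.4 to 34.8 CPM, with an adjusted p of 0.0811, and passed without palbociclib replicate 2 at an adjusted p of 0.0314.

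CDK2, the kinase that cyclin E activates, read 5.61, 14.7 and 7.55 CPM against 16.1 to 30.2 CPM (median 21.0 CPM), a log2 change of −1.29 (SE 0.33, adjusted p = 0.00597). The call was lost without palbociclib replicate 1, at an adjusted p of 0.119, and without replicate 3, at 0.0754. CDKN2C, the INK4 inhibitor p18, read 10.6, 6.57 and 16.4 CPM against 26.6 to 54.2 CPM (median 42.4 CPM), a log2 change of −1.87 (SE 0.29, adjusted p = 1.12e-06). CDKN1A, the inhibitor p21, was the only cell-cycle list member to rise, with 8.86, 7.58 and 14.7 CPM against 2.33 to 5.50 CPM (median 3.89 CPM), a log2 change of 1.38 (SE 0.42, adjusted p = 0.03). So p18 was below and p21 above every DMSO well. The p21 call was lost without palbociclib replicate 1 (adjusted p = 0.0635), without replicate 3 (0.306) and without the DMSO well titled R1.1 (0.0516). The INK4 gene CDKN2A, at 34.8, 49.5 and 50.4 CPM against 20.8 to 66.1 CPM, and CDKN1B, the gene of p27, at 10.0, 11.6 and 18.5 CPM against 11.2 to 25.4 CPM, overlapped DMSO. In the G1 list 5 of 14 genes fell, with a median of −0.84, and CDC25A, a phosphatase that activates CDK2, had the largest of these changes at −1.73 (SE 0.30, adjusted p = 2.7e-05). That list counted 3 lower members without palbociclib replicate 1.

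**Figure D3:**
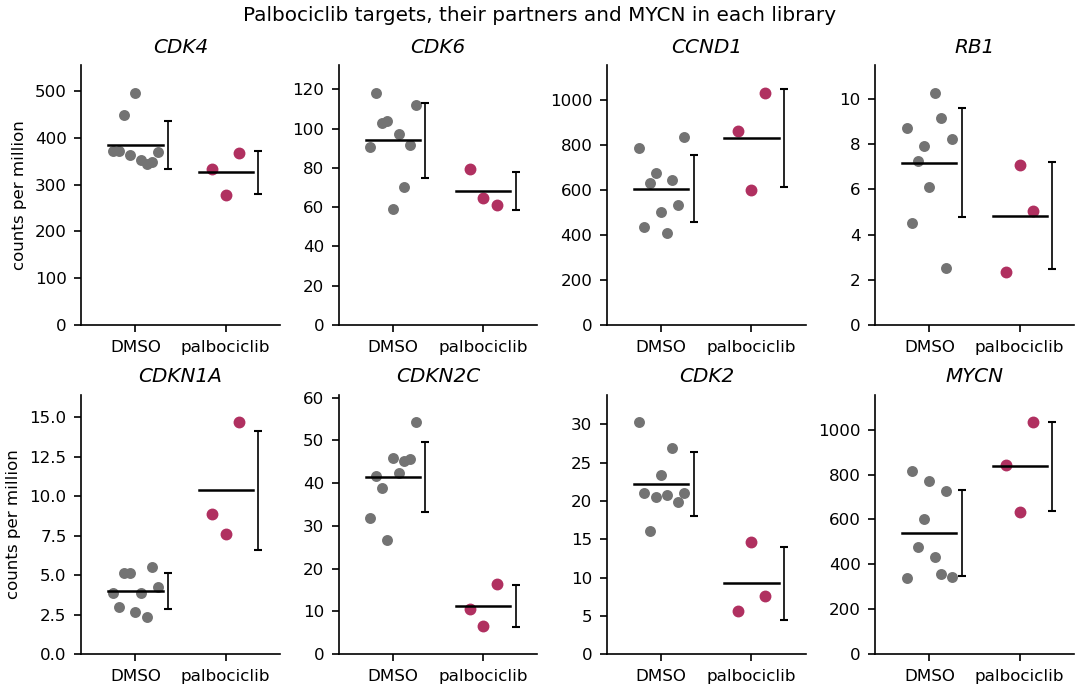
CPM, counts scaled by library size (vertical axes, from 0) of CDK4, CDK6, their partners and inhibitors and MYCN in the 9 DMSO wells (grey) and the 3 palbociclib libraries (red), with group means and 1 SD. The groups overlap for CDK4, CDK6, CCND1, RB1 and MYCN and do not for CDKN1A, CDKN2C and CDK2.

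MYCN, the amplified oncogene of this line, read 844, 635 and 1033 CPM with palbociclib and between 341 and 814 CPM in DMSO, with a median of 478 CPM. Its log2 change was 0.63 (95% interval −0.05 to 1.31, adjusted p = 0.332), and the groups overlapped. Of 25 ribosome biogenesis and MYC target genes 1 fell (4%, beside 3.55% of all genes tested), with a list median of −0.14. Of 23 adrenergic identity genes 1 rose (4.35%, beside 2.9% of all genes tested), with a median of −0.12. The members that passed, named after their values were seen, were PA2G4, a growth-regulated nucleolar protein, at −0.45 and SCG2, a granin of secretory vesicles, at 0.61, whose libraries overlapped DMSO and whose adjusted p was 0.05 to 2 decimals.

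Outside the cell-cycle lists, several of the largest falls were in genes that are themselves known from dividing cells. PSRC1, which binds spindle microtubules, read 26.9, 22.2 and 44.1 CPM against 103 to 170.1 CPM (median 151 CPM), a log2 change of −2.18 (SE 0.19, adjusted p = 4e-14). UBE2T, the ubiquitin-conjugating enzyme of the Fanconi anaemia pathway, read 109.9, 109.7 and 119 CPM against 324 to 528 CPM (median 408 CPM), a log2 change of −1.86 (SE 0.21, adjusted p = 1.14e-10). MND1, a recombination factor, read 32.8, 29.3 and 38.6 CPM against 95.1 to 141 CPM (median 125 CPM), a log2 change of −1.87 (SE 0.19, adjusted p = 8.77e-12). None of the 3 overlapped DMSO. CDCA3, which serves mitotic entry, changed by −2.15, G2E3, a ubiquitin ligase of G2, by −2.22, and CEP152, a centriole duplication protein, by −1.83. CSRP2, a LIM-domain protein, changed by −1.88 and PCBD2, a dehydratase, by −1.67. The call of CEP152 was lost without palbociclib replicates 2 and 3, and that of G2E3 without replicate 3.

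For 4 other genes with large falls the call depended on which libraries were kept, and for INSR and INTS6 the size of the fall depended on 1 DMSO well. INSR, the insulin receptor, read 5.91, 8.59 and 6.71 CPM against 8.88 to 219 CPM, and the DMSO well titled R6 alone read 219 CPM. Its log2 change was −2.52 (adjusted p = 0.0172) and was −1.35 without that well (adjusted p = 0.141), and the call was also lost without any 1 of the 3 palbociclib libraries. For INTS6, a subunit of the Integrator complex, the DMSO well titled R1 read 206 CPM against a median of 20.3 CPM. Its log2 change of −1.88 (adjusted p = 0.035) was −0.99 without that well (adjusted p = 0.231), and this call too was lost without any 1 palbociclib library. SVIL, an actin-binding protein, varied from 9.70 to 85.5 CPM in DMSO. Its log2 change of −4.13 (SE 1.28) ran from −4.70 to −3.86 without 1 of the 3 palbociclib libraries and was −3.91 without the DMSO well titled R2, so its size held while its call was lost each time. PRKDC, the catalytic kinase of DNA end joining, read 35.4, 43.0 and 79.3 CPM against 115 to 419 CPM, a log2 change of −1.99. It lost its call without palbociclib replicate 1, at −1.78 (adjusted p = 0.147), and without replicate 2, at −1.89 (0.132).

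The 28 other treatments of the experiment, whose libraries the palbociclib contrast does not use for its means, were used to describe which genes moved with the cell-cycle genes. For each gene the Spearman correlation was taken between its mean log2 CPM and the mean of 190 S phase and mitosis genes over those treatments. The points share an experiment and differ in depth, and the values are descriptions. Several treatments are related compounds, such as forms of Pomiferin and Osajin, or several concentrations of the same compound, so the points are not independent. A correlation here cannot separate following the cell cycle from another response to the same compounds. For the 408 lower genes on no cell-cycle list the median correlation was 0.42, and 42.4% were above 0.5. For the 452 higher genes it was −0.33, with 27.7% below −0.5. All tested genes had a median of 0.05, with 8.32% above 0.5 and 4.01% below −0.5. Genes that fell with palbociclib therefore tended to track the cell-cycle genes in other treatments, and genes that rose tended to run the other way.

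SYNCRIP, an RNA-binding protein, had the highest correlation at 0.89, and fell from a DMSO range of 278 to 349 CPM to 227, 245 and 214 CPM, a log2 change of −0.44 (SE 0.12, adjusted p = 0.00841). ARMC1, with a correlation of 0.87, ENDOG, a mitochondrial nuclease, with 0.85, CEP78, a centrosomal protein, with 0.85, and PITPNC1, a phosphatidylinositol transfer protein, with 0.84 came next. ENDOG read 17.4, 25.3 and 19.7 CPM against 37.1 to 85.2 CPM (median 54.6 CPM), a log2 change of −1.38 (SE 0.29, adjusted p = 0.0006). At the other end stood EEF1A2, a translation elongation factor of neurons and muscle, at −0.89, SYT5, a synaptic vesicle calcium sensor, at −0.82, GDF15, a stress-induced secreted factor, at −0.81, FKBP11, a chaperone of the secretory pathway, at −0.79, and WBP2, a WW-domain binding protein, at −0.79. GDF15 read 5.91, 3.03 and 10.9 CPM against 0 to 1.83 CPM in DMSO (median 1.06 CPM), a log2 change of 2.54 (SE 0.55, adjusted p = 0.000804). It was above every DMSO well, although its call was lost without palbociclib replicate 3. Of these 10 genes, only ENDOG and PITPNC1 kept their calls without each library left out in turn.

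Among the lists outside the cell cycle, the ATF4 stress list had the most members called higher. Its members, like those of the other lists, were chosen with earlier results of these data known, so its count is a description and no test. ATF4 is a transcription factor that turns on amino acid synthesis and transport when translation is restrained. Of its 24 tested list members 13 rose and none fell, with a median log2 change of 0.79, beside 2.9% of all genes higher. NUPR1, a small stress-induced chromatin protein, read 24.5, 65.7 and 35.7 CPM against 1.11 to 8.997 CPM in DMSO (median 1.40 CPM), a log2 change of 4.29 (SE 0.49, adjusted p = 2.29e-10). STC2, a secreted glycoprotein, read 40.5, 52.6 and 62.9 CPM against 9.75 to 23.5 CPM (median 15.4 CPM), a log2 change of 1.73 (SE 0.19, adjusted p = 3.67e-11). ASNS, asparagine synthetase, read 155, 119 and 158 CPM against 48.7 to 84.5 CPM (median 58.1 CPM), a log2 change of 1.22 (SE 0.17, adjusted p = 8.76e-08). All 3 were above every DMSO well. SLC7A11, the cystine transporter, read 54.0, 78.4 and 118 CPM against 12.8 to 27.7 CPM (median 17.5 CPM), a log2 change of 2.21 (SE 0.39, adjusted p = 3.44e-05). DDIT4, an inhibitor of mTORC1, read 66.7, 42.0 and 53.3 CPM against 2.73 to 31.3 CPM (median 8.95 CPM), a log2 change of 2.04 (SE 0.46, adjusted p = 0.00147). Its antisense gene DDIT4-AS1 also rose, by 3.01, but the counting strand is not given in the sources used here, so reads of the pair may be mixed.

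Lysosome and autophagy genes rose in 8 of 28 cases (28.6%), with a median log2 change of 0.60, beside 2.9% of all genes tested that rose. CD63, a membrane protein of late endosomes, read 347, 407 and 448 CPM against 172 to 237 CPM (median 214 CPM), a log2 change of 0.94 (SE 0.16, adjusted p = 1.06e-05). NEU1, the lysosomal sialidase, read 49.3, 29.8 and 47.4 CPM against 17.6 to 22.4 CPM (median 19.8 CPM), a log2 change of 1.08 (SE 0.21, adjusted p = 0.000185). CTSL, a lysosomal protease, changed by 0.88 (adjusted p = 0.0126). Palbociclib replicate 3 weighed on this list, which counted 2 higher members without it, 4 without replicate 1 and 6 without replicate 2. Cholesterol synthesis genes rose in 4 of 24 cases (16.7%), with a median of 0.43. MSMO1, a sterol methyl oxidase, read 236, 247 and 311 CPM against 104 to 139 CPM (median 114 CPM), a log2 change of 1.14 (SE 0.14, adjusted p = 4.01e-09). CYP51A1, the lanosterol demethylase, changed by 0.98 and FDFT1, squalene synthase, by 0.61. Without palbociclib replicate 3 this list counted 2 higher members.

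Of 18 genes on the senescence-associated secreted list 11 could be tested and 3 rose (27.3%), beside 2.9% of all genes tested that rose. These 3 were also called without each palbociclib library in turn. MMP1, a collagenase, read 14.2, 11.1 and 12.2 CPM against 0.375 to 2.96 CPM (median 2.24 CPM), a log2 change of 2.67 (SE 0.49, adjusted p = 5.49e-05). TIMP1, an inhibitor of such proteases, changed by 0.77. Both MMP1 and TIMP1 lay above every DMSO well. IL6, CXCL1 and AREG had no read in any of the 12 libraries. Of 17 mesenchymal state genes 3 rose (17.6%). FOSL1, an AP-1 subunit, rose by 1.52, TGFBI, a matrix protein, by 1.23, and SPARC, another matrix protein, by 0.67.

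Further large rises fell on no list. NEAT1, the long noncoding RNA of paraspeckles, read 681, 859 and 993 CPM against 162 to 315 CPM (median 241 CPM), a log2 change of 1.81 (SE 0.20, adjusted p = 1.37e-10). ABCC3, an organic anion exporter, read 32.5, 53.1 and 56.2 CPM against 5.55 to 12.3 CPM (median 9.85 CPM), a log2 change of 2.36 (SE 0.26, adjusted p = 1.14e-10). Neither overlapped DMSO. ANKRD1, a nuclear cofactor known as a target of YAP, read 113, 89.0 and 126 CPM against 9.76 to 48.0 CPM (median 24.2 CPM), a log2 change of 2.11 (SE 0.38, adjusted p = 4.59e-05). VGF, a neuropeptide precursor, read 509, 356 and 425 CPM against 99.6 to 163 CPM (median 138 CPM), a log2 change of 1.74 (SE 0.37, adjusted p = 0.000579). CCDC32, an adaptor in clathrin coat assembly, changed by 1.58, and its call was lost without palbociclib replicate 3. RPL32P29 changed by 2.49, but it is a pseudogene of a ribosomal protein gene and its reads may belong to related copies.

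**Figure D4:**
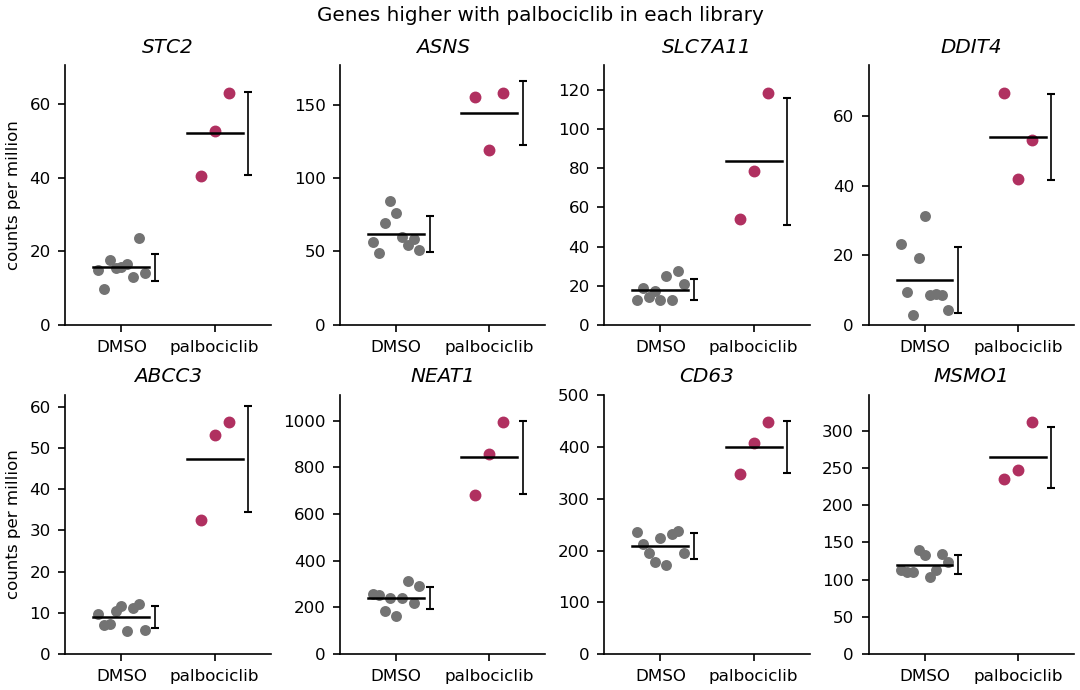
CPM, counts scaled by library size (vertical axes, from 0) of 8 genes that rose with palbociclib, in the 9 DMSO wells (grey) and the 3 palbociclib libraries (red), with group means and 1 SD. No palbociclib point falls inside the DMSO range in any panel, as for NEAT1 at 681 to 993 against 162 to 315 CPM.

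Of all genes tested 2.9% were higher and 3.55% lower, the shares to set beside the list counts given here. Of 21 tested p53 targets 2 rose, with a median of 0.14. No gene of the 20 tested on the interferon and antigen presentation list was called by edgeR. NRF2 targets rose in 5 of 20 cases, among them FTH1, the ferritin heavy chain, by 0.61, and NQO1, a quinone reductase, by 0.48, with 2 left without palbociclib replicate 3. In the neurite list 4 of 26 rose and 1 fell. MAPT, the microtubule protein tau, read 48.4, 39.4 and 42.0 CPM against 15.9 to 31.9 CPM (median 21.4 CPM), a log2 change of 0.93 (SE 0.21, adjusted p = 0.00163). That list counted 1 higher member without palbociclib replicate 1 or 3. Heat shock genes fell in 2 of 15 cases, HSPA8 by 0.43 and DNAJB1 by 0.64 on the log2 scale, and both calls were lost without single palbociclib libraries. HSPA1B, whose reads may be shared with its near-identical copy HSPA1A, was high in 1 library only, at 53.7, 80.9 and 641 CPM against 38.7 to 190.1 CPM. Its log2 change was 1.76, and −0.19 without palbociclib replicate 3. In the same library HERPUD1, a gene of the unfolded protein response, read 80.6 CPM against 25.1 and 23.8 CPM in the others, and its log2 change of 1.28 was 0.46 without it (adjusted p = 0.492). Of 13 mitochondrially encoded genes 3 were called higher, and none without that library.

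Palbociclib was then set beside the comparison treatments. Whether any of them stopped division was not tested. Doses and potencies differ, so these contrasts compare wells as treated and not the compounds at matched effect. Against Alisertib, 510 genes (3.27% of those tested) differed, 302 lower with palbociclib (1.94%) and 208 higher (1.33%), and 102 of the 229 cell-cycle list members were lower and none higher. Lower with palbociclib were 22 of 26 spindle genes (median log2 difference −1.704), 19 of 25 G2 and mitotic regulators (−1.61), 15 of 27 kinetochore genes (−1.18), 9 of 18 origin licensing genes (−1.18) and 6 of 29 replication fork genes (−0.81). Differences between these lists were not tested. CCNB2 read between 98.4 and 211 CPM with Alisertib, and palbociclib was lower by a log2 difference of −1.66 (SE 0.21, adjusted p = 2.31e-08). MCM3 read between 66.6 and 100.4 CPM with Alisertib, a log2 difference of −0.48 (SE 0.16, adjusted p = 0.0824). The count of 510 was 24 when only those 6 libraries were fitted, and 331 and 275 without palbociclib replicates 2 and 3.

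Against NVP-BEZ-235, 736 genes (4.72%) differed, 324 lower with palbociclib (2.08%) and 412 higher (2.64%), with 49 cell-cycle list members lower and 2 higher. MCM3 averaged 58.4 CPM with palbociclib and 56.3 CPM with NVP-BEZ-235 (log2 difference 0.05, 95% interval −0.26 to 0.37), and PCNA averaged 45.8 and 55.2 CPM (log2 difference −0.26, 95% interval −0.77 to 0.24). Neither passed the test. CDK1 averaged 34.0 and 72.9 CPM, a log2 difference of −1.11 (SE 0.18, adjusted p = 1.06e-05). PCLAF averaged 44.5 and 185 CPM, a log2 difference of −2.06 (SE 0.20, adjusted p = 4.43e-12). Cholesterol synthesis genes were higher with palbociclib in 12 of 24 cases, MSMO1 by a log2 difference of 2.23 (SE 0.19, adjusted p = 1.43e-14). With only those 6 libraries fitted, the count of 736 was 221.

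Against Flavopiridol, 3482 genes (22.3%) differed, 1214 lower with palbociclib (7.78%) and 2268 higher (14.5%), and the median of all genes was shifted by 0.26. Cell-cycle list members were lower in 68 cases and higher in 15. CCNB2 averaged 54.8 CPM with palbociclib and 13.9 CPM with Flavopiridol, a log2 difference of 1.97 (SE 0.26, adjusted p = 4.52e-09). MYCN averaged 837 and 176 CPM, a log2 difference of 2.25 (SE 0.46, adjusted p = 9.72e-05). With only those 6 libraries fitted, the count was 1345.

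Over the 29 treatments of the experiment, each described by the median log2 CPM of a list minus that of DMSO, palbociclib had the lowest value for the origin licensing list at −1.53, the replication fork list at −1.20, the G2 and mitotic list at −1.45, the spindle list at −1.39 and the kinetochore list at −1.25. These values share the 9 DMSO wells and carry no test. The next lowest on the licensing list was Osajin (13O) at 10, with −1.38, and on the G2 and mitotic list Flavopiridol at 3, with −1.37. On the spindle list the next was Pomiferin at 10, with −0.79. For deoxynucleotide supply Osajin (13O) at 10 was lower, at −1.66 against −1.47 for palbociclib. Places on the remaining cell-cycle lists are not given here. In the direct contrast with NVP-BEZ-235, palbociclib was not the lower on the chromatin assembly list (median log2 difference 0.10) or the G1 list (0.15). The other cell-cycle lists had negative medians in that contrast. Alisertib had the highest value on the G2 and mitotic list, at 0.18, and lay at −0.48 on the licensing list. On the ATF4 list palbociclib stood at place 13 from the top, with 0.79, below H-Pomiferin (12P) at 10, which was highest with 2.13.

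**Figure D5:**
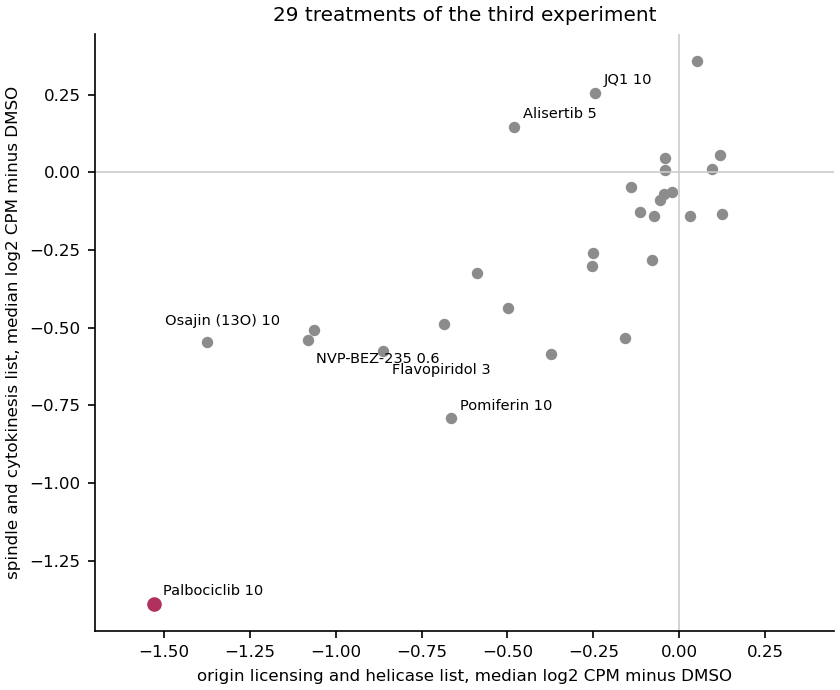
Median log2 CPM minus DMSO of the origin licensing and helicase list (horizontal axis) and of the spindle and cytokinesis list (vertical axis) for the 29 treatments, each point a treatment of 3 libraries, with palbociclib in red. Palbociclib lies lowest on both axes at −1.53 and −1.39, while Alisertib lies at −0.48 and 0.15.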

How the data were processed

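Expression was measured by PLATE-seq in SK-N-BE(2) cells. The deposited values are whole-number counts per gene, not normalized. Per the submitters' processing notes, the authors aligned reads with STAR to GRCh38; the counter, its strand setting and the annotation are not given in the sources used here. No column of the table belonged to a sample outside the series.

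Counts of all 96 libraries of the third experiment (30 groups) were fitted together in R 4.3.3 with edgeR 4.0.16 (quasi-likelihood test, TMM scaling, filterByExpr with a minimum count of 10), with Benjamini-Hochberg adjustment over 15596 genes. CPM used the scaled library sizes, and intervals are 95%. The fit was also run on counts simulated from its own means and spread, which cannot show whether the model suits these wells. Named genes were the 12 largest non-overlapping rises and falls reaching a mean of 30 CPM, the 3 smallest p-values of each list with 3 or more called members, the target genes and markers, and the 5 non-cycle genes with the highest and the 5 with the lowest correlation. Members and lists were chosen with earlier results of these data known. Alternatives were other scalings, DESeq2 1.42.0, no filter, only the groups compared, 3 DMSO wells at a time, a replicate block and each palbociclib library left out. Leaving out each DMSO well was added after seeing the data. Same-number residuals correlated between −0.07 and 0.05 over 6 pairs, with R1.1 to R3.1 matched by their first number and R4 to R6 left unmatched. No pairing by number was seen under that matching, and shared handling of wells was not tested. A few genes that met the naming rule are not reported here.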

Additional observations from a re-analysis of the deposited data

Results flagged for a closer look

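Among 124 genes checked over the 9 DMSO wells, 10 had 1 well far from the other 8, in each case the highest; chance alone flags about 1 in 20. Values are CPM. CDKN1B, the gene of p27, reached 25.4 in well R1, where the next well read 17.3. DLGAP5 reached 73.9 in well R2 and the next 48.1, PCNA 324 in well R5 and the next 269, and ENDOG 85.2 in well R5 and the next 59.4. HSPA1B reached 190.1 in well R2.1, with 98.2 next, and IER3, an immediate early gene, 13.3 in the same well, with 7.78 next. INSR was at 219 in well R6 and 36.5 in the next, INTS6 at 206 in well R1 and 40.1 in the next, and PRKDC at 419 in well R3 and 236 in the next. NUPR1 was at 8.997 in well R2 and 1.97 in the next.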

How the results depend on the processing

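The count of 1006 called genes was 577, 509 and 555 with only DMSO wells R1 to R3, R4 to R6 or R1.1 to R3.1, and ran from 573 to 980 with 1 library left out. The cell-cycle members called lower then ran from 110 to 147. With 1 library left out, counts ran from 275 to 389 against Alisertib, 500 to 586 against NVP-BEZ-235 and 2975 to 3038 against Flavopiridol. With only the groups compared, these 3 counts were 24, 221 and 1345. Against DMSO, the fit of only the groups compared called 1014 genes, 787 of them shared with the main fit. DESeq2 called 1352 genes, 48.2% of them higher, against 45.03% in the edgeR fit, and edgeR with relative log expression scaling 1075, 52.5% higher. With no filter on low counts 1041 were called, 625 of them shared with the filtered fit. With a replicate block 810 genes were called, 143 of them cell-cycle members called lower, and 96 of 109 named called genes passed. Whether the numbers mark wells handled together is not known. Calls held without each library in turn for 40 of 42 named cell-cycle genes, but for 34 of 67 named genes on no cell-cycle list. Changes that reversed sign were CDKN2D (0.02) at −0.078 with bias-adjusted deviances, −0.044 with R1 to R3, −0.32 with R4 to R6, and from −0.67 to 0.49 with 1 library left out (−0.048 without well R1.1 and −0.086 without R2.1), CDKN2A at −0.086 with R1 to R3, E2F3 at 0.11 with R4 to R6, HSPA1B from −0.19 without palbociclib replicate 3 to 2.23, and MCM3 against NVP-BEZ-235 from −0.0077 without replicate 3 to 0.13. The causes were not tested. Low depth limited genes such as RB1.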

Other observations

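Further list members that passed are given as values. MT2A, a metallothionein, was the only 1 of 6 tested genes on its list to be called, at −1.35 on the log2 scale. SCD, the stearoyl-CoA desaturase, changed by 0.84 and NDUFB9, a subunit of respiratory complex I, by −0.39, each the only called gene of its list. SESN2, a stress-induced regulator of mTORC1, changed by 1.46. HMOX1, haem oxygenase, and OSGIN1, 2 of the 5 called genes on the NRF2 list, changed by 1.36 and 2.25. These 6 genes and TXNIP were chosen after their values were seen.

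On the hypoxia and glycolysis list 1 of 26 tested genes was higher and 3 were lower, beside 2.9% and 3.55% of all genes tested. VEGFA, the vascular growth factor, changed by 0.91, and its call was lost without palbociclib replicate 2 (0.76, adjusted p = 0.135) or 3 (0.87, adjusted p = 0.0761) and under the replicate block. LDHA, a lactate dehydrogenase subunit, changed by −1.07 and kept its call without each library left out in turn. PGAM1, a glycolytic mutase, changed by −0.52 and lost its call without any 1 of the 3 palbociclib libraries, at −0.54 to −0.52. TXNIP, a regulator of glucose uptake, changed by −0.91. The list counted 1 lower member without any 1 of the palbociclib libraries.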
